A study of Saccharomyces cerevisiae with 16 samples.

Results

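Budding yeast of line H and line 170 were compared 45, 90 and 150 min after methionine had been taken out of the medium. For each gene, the level on the array of H was set against the level on the array of 170 at the same time. The comparison held 6 of the 16 samples of the series, 3 of each line, picked by their titles and by no measured value. The array of each line at 0 min served as the reference. In the study, hog1∆ cells carried a form of the HOG1 gene placed behind the MET3 promoter, which methionine keeps off and whose activity rises once methionine is gone. Line WT carried wild-type HOG1, and line vec, the control, was JBY13 with an empty plasmid. Total RNA of each of these 4 lines was labelled with Cy3 and hybridised to 1-colour Agilent arrays at 0, 45, 90 and 150 min, with 1 array per line and time. Line H and line 170 thus share the deleted chromosomal HOG1 gene, the plasmid-borne HOG1 and the MET3 promoter, and differ in the form of HOG1.

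Which form each line carried was not settled by the labels. The source name of H gives the mutation D170A, while its other labels give only the letter H. The source name of 170 gives D170A together with F318L, while its description and treatment labels give D170A alone. The lines are therefore called H and 170, and no mutation is assigned to either. Where a mutation would be read from a direction below, it would have to be read under both assignments.

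The high osmolarity glycerol (HOG) pathway ends in Hog1, a mitogen-activated protein kinase. A branch from the sensor Sln1 runs through Ssk1 to the kinases Ssk2 and Ssk22, a branch from Sho1 runs through Opy2, Ste50 and Ste11, and both meet at Pbs2, which phosphorylates and activates Hog1. Active Hog1 enters the nucleus, acts with factors such as Sko1, Hot1, Msn2 and Msn4, and turns on genes that make and hold glycerol, the cell's osmolyte. The study concerned forms of Hog1 that are active without an upstream signal, so a comparison of 2 such lines asks whether their targets and the rest of the transcriptome differ between the forms.

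Levels below are log2 signals relative to the 75th percentile of the array, so that 0 is a gene at that percentile, and a difference is the level in H minus the level in 170. The 75th percentile itself lay between 7771 and 11306 signal units on the 4 arrays of H and between 4926 and 6376 on those of 170. Between 97.0% and 98.8% of gene spots were well above background on the arrays of H, against 94.1% to 97.1% on those of 170, and 0 spots were saturated. The spots of a probe differed by a median of 0.07 log2 units. All arrays of H and WT were on 1 slide and all arrays of 170 and vec on the other, and the slides were scanned on separate days, so line and slide cannot be told apart in this comparison. Every error and p-value on the 3 later times comes from a fit of the 12 arrays of all 4 lines at those times. It measures how steady the differences among the 4 lines were over those times, not that of H and 170 alone. It does not measure the spread between cultures, since each point is 1 array and the labels name no separate cultures.

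Most genes were at like levels in both lines after removal, and the differences that held over time were small. Of 6165 genes tested, 1013 passed at an adjusted p of 0.05 (16.4%), of which 601 were higher in H (9.75%) and 412 higher in 170 (6.68%). The median size of these differences was 0.45 log2 units, and 5563 genes (90.2%) differed by under 0.5. In RNA from whole cultures, fewer cells of a type and less RNA per cell cannot be told apart. Just 34 genes passed with at least a 2-fold difference (0.552%), 29 higher in H and 5 higher in 170, and 19 and 4 of these had no gene symbol. Genes whose 3 later arrays did not overlap between the lines numbered 1224 (19.9%).

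The split of the calls by direction moved with the scaling. Of the called genes, 59.3% were higher in H, against 48.8% of 1032 after scaling to the median, 49.2% of 736 after quantile normalization and 40.0% of 1233 after normexp background correction. The calls also rested on 3 times being present. Without the arrays at 45 min, 938 genes passed. Without those at 90 min the count was 1 (YMR316C-A, a gene without a symbol), and without those at 150 min it was 2 (YMR316C-A and YDR360W). No other call named below passed when the arrays at 90 or 150 min were left out.

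Differences between the lines were already present at 0 min. Over all genes, the difference after removal and the difference at 0 min had a Pearson r of 0.55 and a Spearman rho of 0.58, across genes that share the same arrays and slides. Of the 1013 called genes, 948 (93.6%) had the same sign at 0 min, against 72.8% of all genes, and 277 (27.3%) differed at least as much at 0 min. The test at 0 min called 7 genes (0.114%), all higher in H, and 833 had an unadjusted p of at most 0.05. Among these 7 were AI4, an intron-encoded endonuclease of the mitochondrial genome, at 1.79 ± 0.19 (SE), and BIO3, a biotin synthesis enzyme, at 1.26 ± 0.16. The other 5 were YBR064W, YDR274C, YJL009W, YMR316C-A and YNL089C, and 6 of the 7 also passed after removal in the same direction. The single direction at 0 min depended on the processing. With normexp correction AI4 was not called, and FMT1 (-1.15) and YBR209W (-1.60) were called higher in 170. After quantile normalization the calls also fell in both directions. The count at 0 min was 25 without the arrays at 45 min and 0 without those at 90 or at 150 min.

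**Figure D1:**
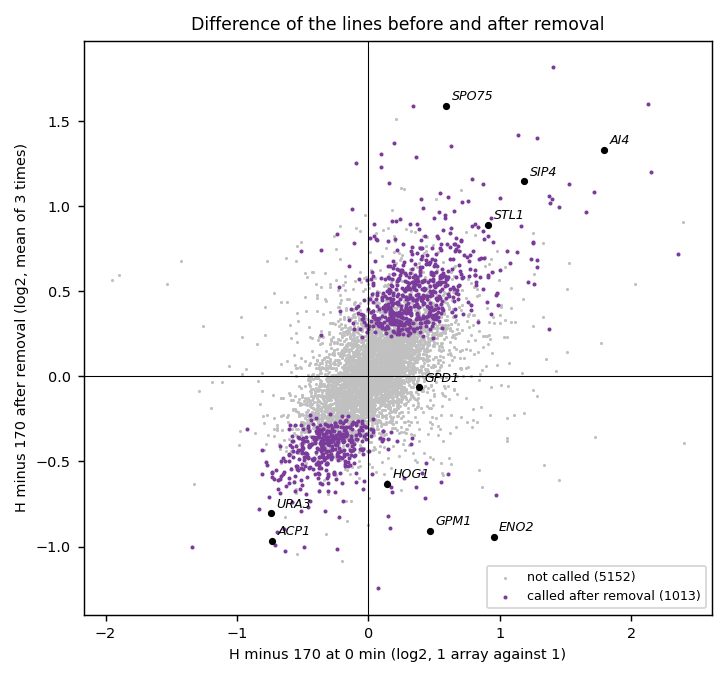
Each point is 1 of 6165 genes, with H minus 170 at 0 min (log2, 1 array against 1) on the x axis and the mean over the 3 later times on the y axis; purple points are the 1013 called genes, grey points the rest, and black points the genes with names. The cloud rises from lower left to upper right (r 0.55), while ENO2 and GPM1 lie at the lower right.

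The change from 0 min was then compared between the lines, which sets each line against its own start. No gene passed (0%), with a smallest adjusted p of 0.208, and 247 genes (4.01%) had an unadjusted p of at most 0.05. This test finds small differences poorly. It was tried on simulated data with independent errors. In these, 67 of 6165 genes were changed by 0.5 log2 units, 67 by 1 and 66 by 2. The test called 2.985% of genes changed by 0.5 log2 units and 49.25% of those changed by 1. The test after removal called 56.72% and 88.06% of the same genes. How many genes truly changed in the real data is not known, so these shares may not hold there. A count of 0 thus does not show that the changes were alike. Without the arrays at 45 min, 1 gene passed, YNL089C, at -2.23 ± 0.13. The single differences were of like width at each time, with an SD over genes of 0.33 at 0 min and of 0.35, 0.35 and 0.38 at 45, 90 and 150 min. Differences of at least 2-fold between the 2 arrays of a time numbered 82 (1.33%) at 0 min, 103 (1.67%) at 45 min, 84 (1.36%) at 90 min and 147 (2.38%) at 150 min. Between later times the differences had an r over genes of 0.56 (45 against 90 min), 0.48 (45 against 150 min) and 0.61 (90 against 150 min).

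Lines WT and vec lie on the same pair of slides and share no array with H or 170. Their later arrays are, however, among the 12 of the fit that made the calls. A steady difference of WT and vec lowers the error of a gene, so the shares below are not independent of the calls. Of the 601 genes higher in H, 498 (82.9%) were also higher in WT than in vec at 3 of 3 later times, against 33.1% of all genes. Of the 412 genes higher in 170, 338 (82.0%) were lower in WT than in vec at 3 of 3 times, against 27.0% of all genes. WT and vec differ in HOG1 as well as in slide, so the part of either in these shares cannot be told apart.

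The difference between the lines also moved with the brightness of the probe. Genes were ranked by mean level and split into 5 groups of like size. From the dimmest to the brightest group, the median difference after removal was 0.20, 0.09, 0.03, 0.00 and -0.11. At 0 min the same medians were 0.14, 0.10, 0.03, 0.02 and -0.03. Of the genes of the dimmest group, 16.9% were called higher in H and 2.92% higher in 170, against 4.22% and 14.9% in the brightest group. All 34 called differences of at least 2-fold lay in the 2 dimmest groups, 29 and 5. For WT minus vec the medians ran from 0.14 to -0.07. The part of brightness in the results below was not tested.

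**Figure D2:**
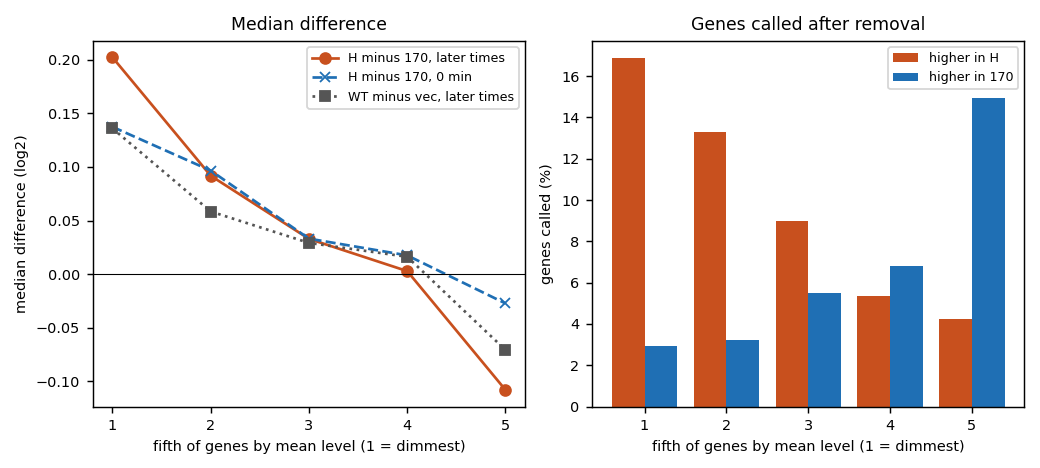
Genes were split into 5 groups by mean level over the arrays (x axis, dimmest to brightest), with the median difference between lines and the share of genes called in each direction. The median of H minus 170 falls from 0.20 in the dimmest group to -0.11 in the brightest.

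HOG1 itself stood well above its level at 0 min in both lines after removal and reached a higher level in 170. In H it stood at 1.65 at 0 min and at 5.55, 5.44 and 5.41 at 45, 90 and 150 min. In 170 it stood at 1.51 and then at 6.12, 6.0 and 6.16. In WT it stood at 1.89, 5.64, 5.49 and 5.74, and in vec, which has no HOG1 behind the MET3 promoter, it lay between -2.32 and -1.67. The lines did not overlap at the later times, and at 0 min they were 0.14 apart. After removal the level was 1.55-fold higher in 170 (H minus 170 -0.63 ± 0.09, SE of the fit to 12 arrays, 95% interval -0.84 to -0.42, adjusted p = 0.0062). After quantile normalization the difference was -0.08 and did not pass. The change from 0 min differed by -0.77 ± 0.19 between the lines (adjusted p = 0.51). Where on the gene the HOG1 probe lies is not given in the sources used here. Native MET3 encodes ATP sulfurylase of sulfate assimilation and lends its promoter to the plasmid gene. It went from -2.85 to 2.66, 2.32 and 2.46 in H and from -2.73 to 2.65, 2.59 and 2.88 in 170 (difference -0.23, interval -1.19 to 0.73, adjusted p = 0.75). The interval also holds the spread of WT and vec, since WT minus vec for MET3 was 1.27, -1.43 and -0.64 at 45, 90 and 150 min.

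None of the known targets of Hog1 in osmotic stress differed past the threshold. Of 28 genes of this list, 0 passed in either direction by limma, and 1 had an unadjusted p of at most 0.05 (DDR48, a stress protein, at 0.48 ± 0.20). Over all genes 16.4% passed and 33.0% had an unadjusted p of at most 0.05. In a fit of only the 6 arrays of both lines, 1 gene passed in each direction, DDR48 higher in H and CWP1, a cell wall mannoprotein, higher in 170. Their median difference was 0.00, against 0.03 over all genes tested, and 0.04 at 0 min. The differences ran from -0.56 to 0.89, and 23 of the 28 were under 0.5 in size. At 45, 90 and 150 min the medians were -0.06, -0.10 and 0.08, and H was above 170 in 11, 12 and 17 of the 28 genes. The values that follow are of 1 array against 1 at each time and have no test.

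STL1, the glycerol-proton symporter, stood at -7.17 in H and -8.08 in 170 at 0 min. In H it reached -1.47, -0.97 and -2.33 at 45, 90 and 150 min, and in 170 it reached -3.54, -1.72 and -2.18. In WT it was still at -8.48 at 45 min and came to -5.27 and -3.79, while vec stayed between -7.93 and -7.38. The array of H was thus above that of 170 by 2.08 at 45 min and by 0.75 at 90 min, and the lines were -0.15 apart at 150 min. The mean difference was 0.89 ± 0.81 with an interval of -0.95 to 2.74 (adjusted p = 0.49), which leaves a wide range of differences in either direction.

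A larger difference at 45 min than later was also seen in GPD1, GRE2 and GPP2, again as a description of 1 array per line and time. GPD1, the glycerol-3-phosphate dehydrogenase that starts glycerol synthesis, stood at 4.15, 3.86 and 3.38 in H and at 3.51, 4.12 and 3.95 in 170. Its difference went from 0.64 at 45 min to -0.27 and -0.57 (mean -0.06, interval -1.08 to 0.95, adjusted p = 0.94). GRE2, a methylglyoxal reductase, was at 2.0, 2.43 and 2.27 in H and at 0.74, 2.03 and 2.79 in 170, with differences of 1.26, 0.40 and -0.52. GPP2, a glycerol-3-phosphatase, was at 1.91, 1.56 and 1.14 in H and at 0.78, 1.42 and 1.09 in 170, with differences of 1.13, 0.14 and 0.05. In each of these genes H was the higher line at 45 min and the gap was smaller or turned by 150 min, and the change from 0 min did not pass. The list as a whole did not share this, since 170 was the higher line in 17 of its 28 genes at 45 min.

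RTC3, a stress-induced protein, was likewise above 170 at 45 min and below it later, with differences of 0.79, -0.76 and -0.84, from levels of 0.78, 1.26 and 0.74 in H and -0.01, 2.03 and 1.58 in 170. In the remaining 3 always-named targets H was not above 170 at 45 min. GPP1, the second glycerol-3-phosphatase, gave -0.07, -0.41 and -0.75, from levels of 5.16, 4.68 and 4.22 in H and 5.24, 5.09 and 4.97 in 170. HSP12, a membrane-associated small heat shock protein, gave -0.76, 0.05 and 0.16, and ended at 2.37 in H and 2.21 in 170. CTT1, the cytosolic catalase, lay below its level at 0 min in both lines, at -1.71, -1.58 and -1.14 in H and -1.25, -1.49 and -1.85 in 170. None of RTC3, GPP1, HSP12 and CTT1 passed, with intervals of -1.85 to 1.31 for RTC3, -0.99 to 0.17 for GPP1, -1.53 to 1.16 for HSP12 and -0.39 to 0.51 for CTT1.

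**Figure D3:**
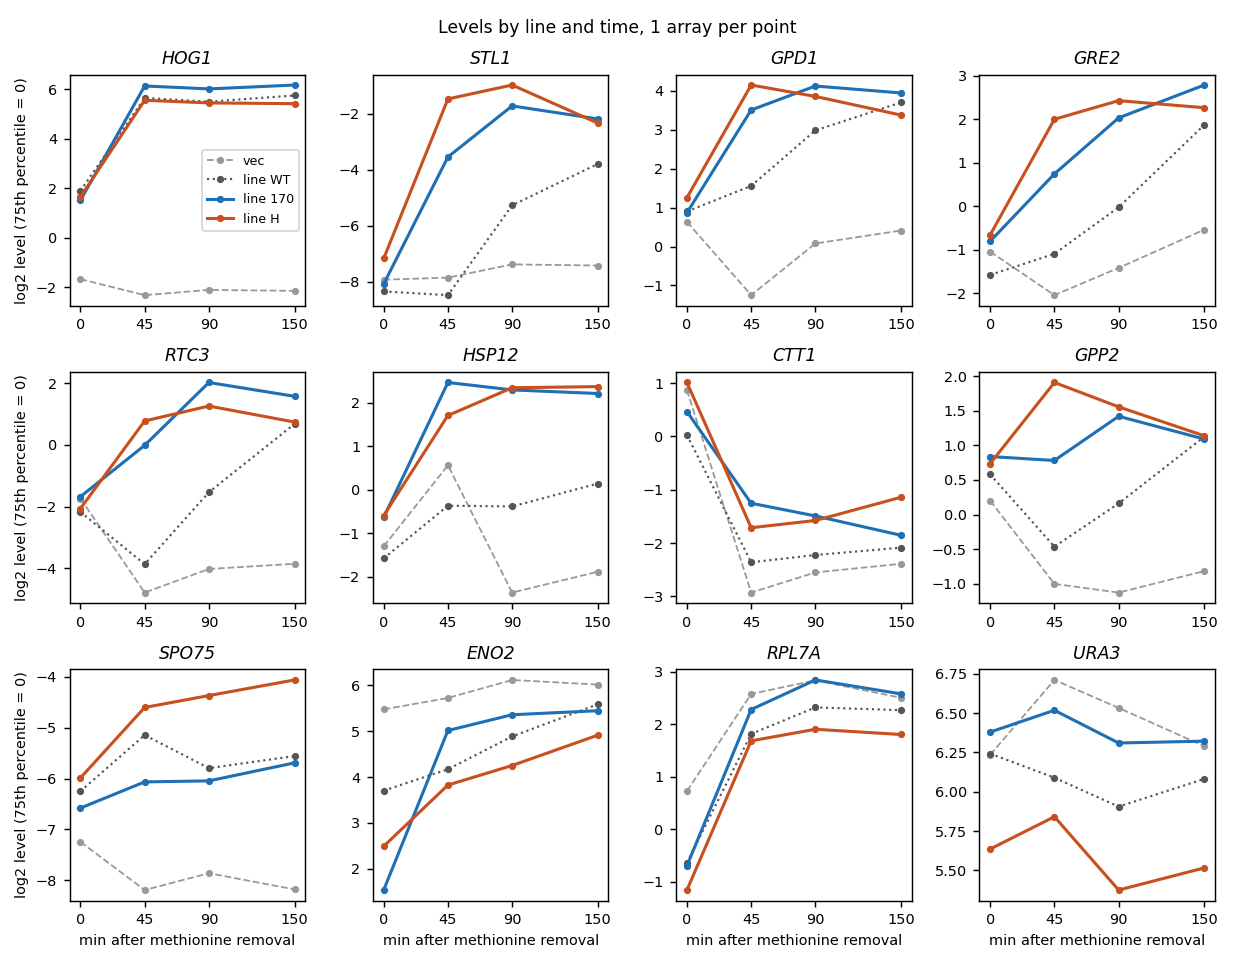
Log2 level (y axis, array 75th percentile at 0) against minutes after methionine removal (x axis) for 12 genes, with 1 array per point and lines coloured by cell line. HOG1 of 170 lies above that of H at the 3 later times, STL1, GRE2 and GPP2 are higher in H at 45 min, and ENO2 crosses between 0 and 45 min.

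Among the genes of the HOG branches, 2 of 16 passed and both were higher in H, a share near the 9.75% of all genes called in that direction. That count moved with the processing. With normexp correction 5 of the 16 were higher in H, beside 493 of all 6165 genes. After quantile normalization it was 3, beside 362 of all genes, and median scaling gave 2 higher in H and 1 in 170. OPY2, the membrane anchor that brings Ste50 and Ste11 to the Sho1 branch, stood at -1.0, -0.97 and -1.05 in H and at -1.32, -1.38 and -1.70 in 170 (0.46 ± 0.08, adjusted p = 0.011). SSK1, the response regulator below Sln1, stood at -2.34, -1.88 and -2.03 in H and at -2.87, -2.39 and -2.41 in 170 (0.47 ± 0.09, adjusted p = 0.014). The 3 later arrays of the lines did not overlap for either gene, and at 0 min the differences were 0.31 and 0.22. PBS2, the kinase directly above Hog1, differed by 0.06 (interval -0.14 to 0.26, adjusted p = 0.69). The median of the 16 genes was 0.16 after removal and 0.19 at 0 min.

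The list of 6 phosphatases that act on Hog1 had 1 called gene, beside 6.68% of all genes called higher in 170, and 0 with normexp correction. This was PTC2, a type 2C protein phosphatase, which was lower in H at -0.48 ± 0.13 (adjusted p = 0.034). It stood at -0.80, -0.71 and -1.04 in H and at -0.39, -0.28 and -0.45 in 170. Of 13 transcription factors and kinases under Hog1, 2 passed, both higher in H, also near the 9.75% of all genes. CYC8, a subunit of the Cyc8-Tup1 corepressor that Sko1 recruits, was at 0.53, 0.60 and 0.63 in H and at -0.11, 0.10 and -0.01 in 170 (0.60 ± 0.07, adjusted p = 0.0046), and had differed by 0.55 at 0 min. SKO1, the repressor that Hog1 converts to an activator, differed by 0.33 ± 0.08 (adjusted p = 0.024). Among 14 genes of glycerol metabolism and transport there was 1 call, a share near the 6.68% of all genes called higher in 170. This was GPD2, the glycerol-3-phosphate dehydrogenase isoform tied to redox balance. It was lower in H, at -1.36, -2.40 and -2.61 against -0.97, -1.73 and -1.69 in 170 (-0.66 ± 0.15, adjusted p = 0.021), and in WT it was also lower than in vec, by -1.08 on average.

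For the general stress genes, which Msn2 and Msn4 turn on, the gap between the lines was not the same at each time, read from 1 array against 1. Of 44 genes, 3 passed, all higher in H, a smaller share than the 9.75% of all genes called in that direction. They were UBI4, the polyubiquitin gene, at 0.58 ± 0.10 (adjusted p = 0.0095), PRB1, the vacuolar protease B, at 0.49 ± 0.13 (adjusted p = 0.037), and GAC1, a regulatory subunit of the phosphatase Glc7 in glycogen synthesis, at 0.97 ± 0.27 (adjusted p = 0.044). With normexp correction PRB1 and UBI4 still passed, and after quantile normalization UBI4 alone. The median difference of the list was -0.23 at 45 min, -0.00 at 90 min and 0.62 at 150 min, and H was above 170 in 13, 22 and 37 of the 44 genes, against 18 at 0 min. Over all genes H was above 170 in 54.2%, 51.5% and 56.2% at these times and in 57.2% at 0 min. On the same pair of slides, the median level of the list at 45, 90 and 150 min was -1.90, -1.96 and -1.58 in WT. In vec it was -1.82, -2.34 and -2.12. DDR2, a stress gene of unknown function, went from levels of 0.08 and -0.95 in H at 45 and 90 min to 1.01 at 150 min, while 170 went from 0.45 and -0.82 to -1.25. RTN2, a reticulon, stood at -2.77 in H and -4.56 in 170 at 150 min, and TSL1, a trehalose synthase subunit, at -1.90 and -3.32. DDR2, RTN2 and TSL1 did not pass over the 3 times (adjusted p = 0.42, 0.076 and 0.16), and they were picked after their values had been seen. Without the arrays at 150 min the list's median was -0.17, against 0.10 with all 3 times.

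Cytosolic chaperones, the Hsp90 and Hsp70 proteins and their partners, were lower on the array of H at 45 min. All 18 genes of the list lay below 170 there, with a median of -0.88, while the medians at 90 and 150 min were 0.13 and 0.05 and H was above 170 in 11 and 10 of 18. HSP82, an Hsp90, stood at -0.04 in H and 1.80 in 170 at 45 min, and at 1.62 in both at 90 min. SSA2, an Hsp70, stood at 1.30 in H and 2.79 in 170 at 45 min, and at 3.30 in both at 90 min. The median level of the list at 45 min was 0.17 in H and 0.34 in WT on one slide, and 1.23 in 170 and 1.24 in vec on the other. None of the 18 genes passed over the 3 times by limma, and 0 had an unadjusted p of at most 0.05, HSP82 at -0.53 (interval -1.71 to 0.64) and SSA2 at -0.58 (interval -1.58 to 0.42) included. HSP82 and SSA2 were also picked after their values had been seen, and both have near-identical copies, HSC82 and SSA1, whose probes can share signal.

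In reserve carbohydrate metabolism, 3 of 21 genes passed, all higher in H, beside 9.75% of all genes, with a list median of 0.32. The count was 2 with normexp correction and 2 after quantile normalization. PCL8, a cyclin of the Pho85 kinase that restrains glycogen synthase, stood at -4.14, -3.66 and -3.30 in H and at -4.58, -4.32 and -4.31 in 170 (0.71 ± 0.10, adjusted p = 0.0059). GLG2, a glycogenin that primes glycogen, differed by 0.63 ± 0.12 (adjusted p = 0.012), and the third gene was GAC1. At 0 min the median of the list was -0.08. Among 19 autophagy genes, 6 were higher in H and 1 in 170, beside 9.75% and 6.68% of all genes, with a median of 0.29. This split was 3 and 2 with normexp correction and 2 and 1 after quantile normalization. ATG1, the kinase that starts autophagy, stood at -3.70, -3.26 and -3.25 in H and at -4.39, -4.16 and -3.99 in 170 (0.78 ± 0.11, adjusted p = 0.0051), after a difference of 0.65 at 0 min. The call in the other direction was ATG11, a scaffold of selective autophagy, at -0.38 ± 0.09 (adjusted p = 0.019). Of 26 genes of oxidative stress defence, 3 passed and were lower in H, beside 6.68% of all genes called in that direction. They were the thioredoxin peroxidases AHP1 (-0.59 ± 0.09), TSA1 (-0.52) and TSA2 (-0.47). AHP1 and TSA1 lie in the brightest group of genes, of which 14.9% were called higher in 170. After quantile normalization TSA2 alone passed. AHP1 had differed by -0.74 at 0 min and its difference was -0.04 after quantile normalization.

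Ribosomal protein genes made up the largest block of calls in 1 direction among the lists. Of 137 genes, 73 were higher in 170 and 0 in H, beside 6.68% of all genes called in that direction. In the brightest group of genes 14.9% were called higher in 170, with a median difference of -0.11. This list is bright, with a median level of 3.74 in H and 4.02 in 170 at 45 min. Their median difference was -0.33, and the medians at 45, 90 and 150 min were -0.25, -0.36 and -0.34. RPL7A, a protein of the large subunit, stood at 1.68, 1.90 and 1.80 in H and at 2.28, 2.84 and 2.58 in 170. The 3 later arrays did not overlap (-0.77 ± 0.10, adjusted p = 0.0051). RPL11A, which contacts the 5S RNA of the large subunit, differed by -0.73 ± 0.10. The list had a median of -0.25 at 0 min and its change from 0 min differed by a median of -0.09. In WT minus vec the median was -0.19. The count in 170 was 76 with normexp correction, 81 after median scaling and 17 after quantile normalization, which also put 2 genes higher in H and left a median of -0.06. It was 58 without the arrays at 45 min, 0 without those at 90 or at 150 min, and 3 in a fit without a time term. Many ribosomal protein genes exist as near-identical pairs, whose probes can share signal. Of 56 mitochondrial ribosomal protein genes, 11 were higher in 170 and 0 in H, with a median of -0.20 after a median of -0.25 at 0 min. The list of 74 ribosome biogenesis genes did not share this direction, with 4 genes higher in H, 1 in 170 and a median of 0.02.

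Glycolytic and fermentation genes were lower in H after removal, while at 0 min they were not. Of 18 genes, 10 were higher in 170 and 0 in H, and the median was -0.53. Called higher in 170 were 6.68% of all genes and 14.9% of the brightest group of genes, and this list is bright. At 0 min the array of H had been the higher in 15 of the 18 genes, with a median of 0.42. ENO2, an enolase, stood at 2.49 in H and 1.54 in 170 at 0 min. It then stood at 3.83, 4.25 and 4.91 in H and at 5.02, 5.36 and 5.45 in 170 (-0.94 ± 0.20, adjusted p = 0.017). GPM1, the phosphoglycerate mutase, stood at 3.42 and 2.96 at 0 min, and then at 4.24, 4.54 and 5.21 in H and 5.40, 5.48 and 5.83 in 170 (-0.91 ± 0.16, adjusted p = 0.0098).

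For both enzymes the 3 later arrays of H lay below those of 170 at the same time, and the sign was the opposite at 0 min. The change from 0 min differed by -1.90 ± 0.40 for ENO2, yet its adjusted p was 0.36, and the list's median for that change was -0.98 with 0 genes past the threshold. Levels of ENO2 in vec lay between 5.48 and 6.12 throughout, and in WT they went from 3.70 to 5.59. The median of WT minus vec for the list was -0.65. The count in 170 was 11 with normexp correction, 12 after median scaling and 2 after quantile normalization, where the median was -0.16. It was 6 without the arrays at 45 min, 0 without those at 90 or at 150 min, and 3 without a time term. PET122, a mitochondrial translation activator, moved like these genes, at 2.20 in H and 2.04 in 170 at 0 min and then at 3.31, 3.59 and 4.10 against 4.35, 4.45 and 4.87 (-0.89 ± 0.11, adjusted p = 0.0046).

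The highest called gene with a symbol was SPO75, a gene of sporulation. It stood at -5.98, -4.60, -4.37 and -4.06 in H and at -6.58, -6.06, -6.04 and -5.69 in 170 at 0, 45, 90 and 150 min. The lines did not overlap at the later times, and the level was 3.01-fold higher in H (1.59 ± 0.20, adjusted p = 0.0046). In WT it was at -5.14, -5.79 and -5.56 after removal, and in vec at -8.19 to -7.86. With normexp correction the difference was 0.99, and after quantile normalization 1.43. SPO74, a protein of the meiotic spindle pole body, was never well above background in 170 after removal, at -9.13, -8.67 and -8.75, and was at least 2.20-fold higher in H, where it stood at -8.12, -7.42 and -6.90 (adjusted p = 0.013). That bound holds for the processed signal alone, since with normexp correction the difference of SPO74 was -0.050.

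Of the 28 meiosis and sporulation genes, 5 were higher in H and 0 in 170, with a median of 0.30, but normexp correction gave 1 and 2 with a median of -0.02. Called higher in H were 9.75% of all genes and 16.9% of the dimmest group of genes, and this list is dim. Beside SPO75 and SPO74 these were IME4, an RNA methyltransferase that promotes entry into meiosis (1.29 ± 0.35, adjusted p = 0.039), SPS1, a sporulation kinase (0.65 ± 0.14), and ZIP1, a protein of the synaptonemal complex (0.56 ± 0.08). IME4 showed no gap at 90 min, with -8.03 in H and -8.14 in 170, and its difference came from 45 min (-6.58 and -8.64) and 150 min (-7.47 and -9.17). RME1, a repressor of meiosis, was higher in H as well, at -2.17, -1.94 and -1.02 against -3.02, -2.72 and -2.47 (1.03 ± 0.17, adjusted p = 0.0083).

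The other named genes higher in H were of mixed function. AI4 differed by 1.33 ± 0.11 after removal, beside 1.79 at 0 min. Its size moved with the processing, and over the alternatives it went down to 0.26 after removal and to 0.19 at 0 min. The gene is dim, at a mean of -6.39 in H and -7.72 in 170, where 2 of 3 later arrays were well above background. PGU1, an endopolygalacturonase, was at least 1.87-fold and SPR2 at least 1.64-fold higher in H, since neither was well above background in 170 after removal, and these bounds too did not hold with normexp correction. SIP4, an activator of gluconeogenic genes, stood at -3.57, -4.82 and -5.08 in H and at -4.85, -5.85 and -6.20 in 170 (1.15 ± 0.24, adjusted p = 0.016), and had differed by 1.19 at 0 min. HXT14, SHH3, FRE7, CDA2, CSM4 and BNA4 differed by between 0.93 and 1.13. The differences of SPO74, PGU1, HXT14, CDA2, SPR2 and CSM4 turned below 0 with normexp correction.

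Among the named genes higher in 170 was DAN1, a cell wall mannoprotein of cells short of oxygen, at -7.03, -5.72 and -4.16 in H and -6.48, -4.37 and -3.05 in 170 (-1.0 ± 0.29, adjusted p = 0.047). ACP1, the mitochondrial acyl carrier protein, stood at -0.67, -0.63 and -0.66 in H and at 0.29, 0.32 and 0.32 in 170. This was a steady gap of -0.97 ± 0.11 (adjusted p = 0.0035) that was -0.73 at 0 min, and WT lay below vec by -0.69. ATP18, a subunit of ATP synthase, differed by -0.78 ± 0.10 and by -0.83 at 0 min. AUA1, IZH4, a membrane protein of zinc homeostasis, HHY1, PRM9 and HEM13, a heme synthesis enzyme, differed by between -0.99 and -0.74.

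**Figure D4:**
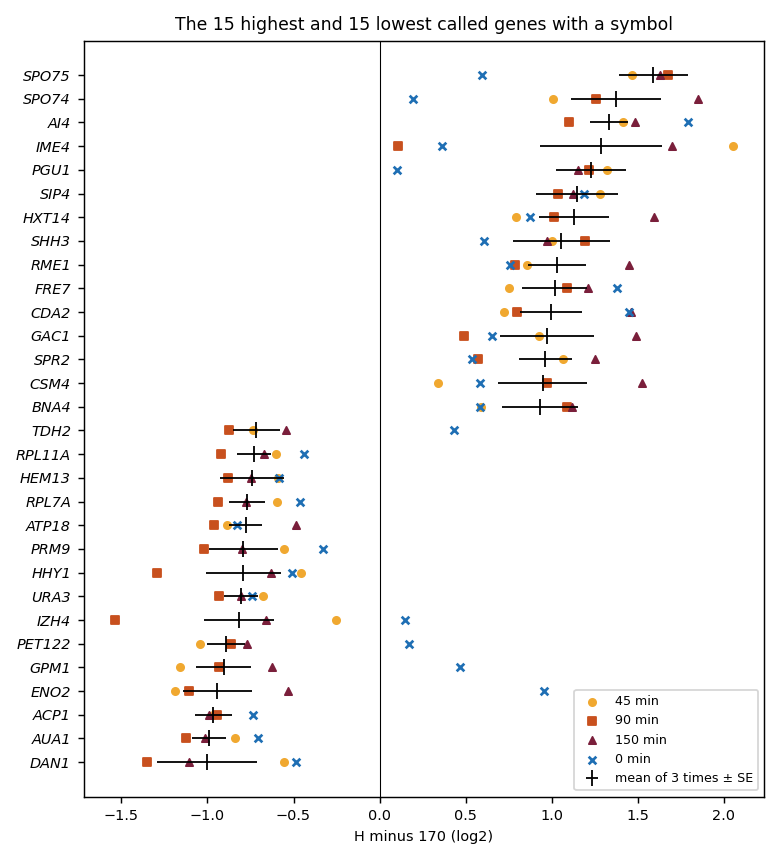
H minus 170 (x axis, log2) for the 15 highest and 15 lowest called genes with a symbol, as a mean over the 3 later times ± SE (bars) with single times as coloured points and 0 min as blue crosses. SPO75 leads at 1.59 and DAN1 is lowest at -1.0, and the crosses of ENO2, GPM1 and TDH2 lie on the other side of 0.

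Markers of strain and plasmid were read beside these results. URA3, a pyrimidine synthesis enzyme and common plasmid marker, stood at 5.64, 5.84, 5.38 and 5.52 in H and at 6.38, 6.52, 6.31 and 6.32 in 170 at 0, 45, 90 and 150 min. It was 1.75-fold higher in 170 after removal (-0.81 ± 0.10, adjusted p = 0.0046) and differed by -0.74 at 0 min, while WT lay at 5.91 to 6.24 and vec at 6.24 to 6.71. After quantile normalization the difference of URA3 was -0.21 and did not pass. LYS2, a lysine synthesis enzyme, differed by -0.62 ± 0.15 after removal (adjusted p = 0.025) and by -0.04 at 0 min. Of 7 such markers, these 2 passed, both higher in 170, beside 6.68% of all genes called in that direction. URA3 lies in the brightest group of genes, of which 14.9% were called higher in 170. Which marker the plasmids carry is not given in the sources used here, and the part of URA3 or plasmid number in the other results was not tested.

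Mating-type genes were read in the same way, without setting 1 probe's level against another's. STE2, the receptor for alpha factor, lay between -0.63 and 2.10 over the 16 arrays, MF(ALPHA)1, an alpha pheromone gene, between -7.77 and -4.73, and STE3, the receptor for a-factor, between -4.68 and -3.24, well above background on 16 of 16. Among 7 a-specific genes the single call was BAR1, the protease that degrades alpha factor, which was higher in H (0.58 ± 0.10, adjusted p = 0.0081) after a difference of 0.91 at 0 min. Among 4 alpha-specific genes it was STE3, at 0.78 ± 0.19 (adjusted p = 0.027), from levels of -4.21, -3.24 and -4.03 in H and -4.64, -4.50 and -4.66 in 170. Both counts stand beside 9.75% of all genes called higher in H. With normexp correction MF(ALPHA)1 and MF(ALPHA)2 were called higher in 170 beside STE3 higher in H. The median of the 4 genes then was -0.13, against 0.20 as reported. After quantile normalization 0 of the 4 passed.

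**Figure D5:**
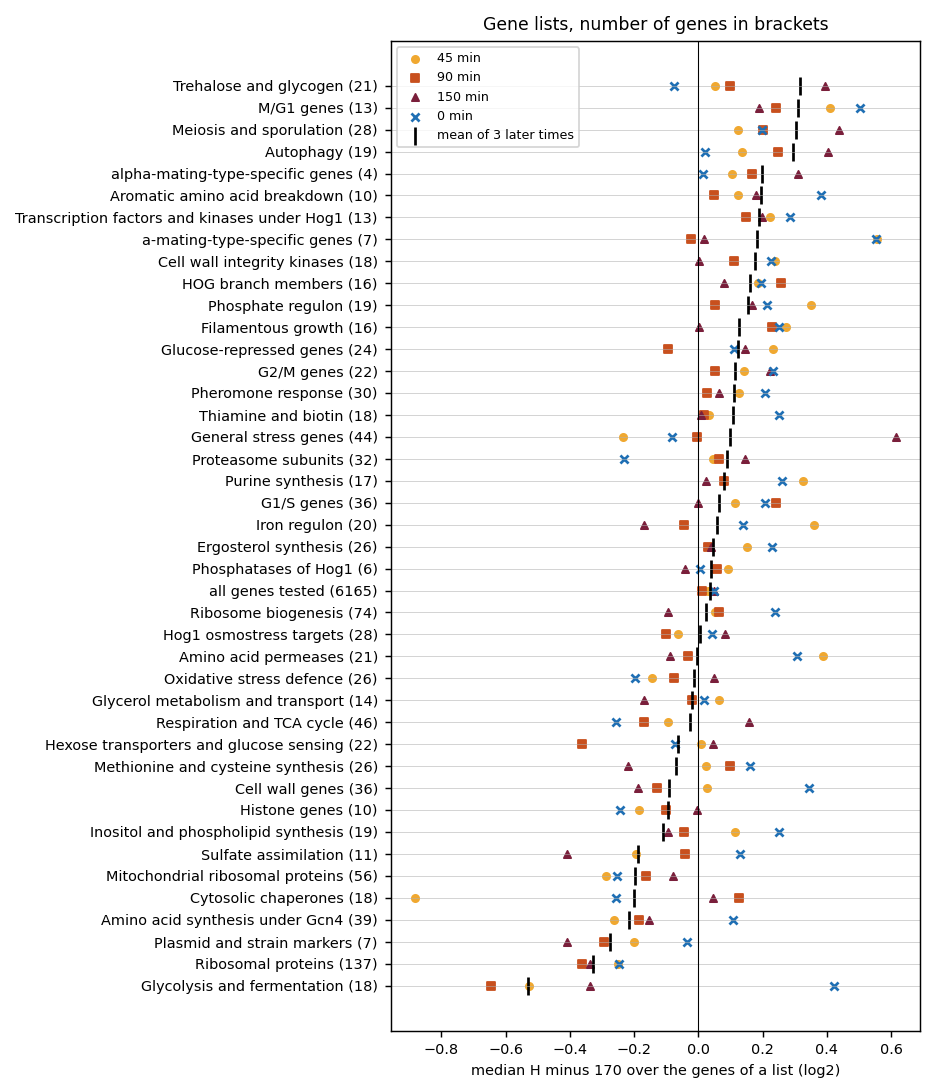
For each gene list reported (rows, number of genes in brackets), the median over its genes of H minus 170 (x axis, log2) at 45, 90 and 150 min, at 0 min, and for the mean of the 3 later times (bar). Ribosomal proteins lie left of 0 at every time, glycolysis lies left of 0 after removal and right of it at 0 min, and chaperones lie left of 0 at 0 and 45 min.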

How the data were processed

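The authors deposited 1 Agilent scanner file per sample with processed Cy3 intensity values, made with Feature Extraction 10.7.1.1 per the file headers. They also deposited a table of log2 values, used only as an alternative, whose changes from 0 min had an r of at least 0.998 with those of the scanner values (6107 probes); its centring is not stated. The intensity of each spot was taken to log2 and set relative to the 75th percentile of the array. The 2 spots of a probe were then averaged, leaving out a spot flagged as non-uniform where the other was uniform. The brightest probe stood for a gene. A gene was kept if its probe cleared the background flag on 3 or more arrays, which left 6165 of 6227, and 5713 matched a symbol table of RefSeq assembly R64, used for names only. At 45, 90 and 150 min, a linear model with line and time as terms was fitted to 12 arrays with limma 3.58.1 (lmFit, then eBayes, under R 4.3.3), which leaves 6 residual degrees of freedom. The tests at 0 min and of the change from 0 min used all 16 arrays, with the spread taken from the later times. All were two-sided, with Benjamini-Hochberg adjustment over all genes tested. The steps were tested on simulated data. Where a gene was not well above background on any later array of 1 line, a lower bound of the fold is given.

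Named genes were HOG1, MET3, 8 stress genes, the 15 highest and 15 lowest called genes with a symbol, up to 6 called genes each way at 0 min, and up to 4 per gene list (42 lists, of which 1 is not reported here). The comparison and the lists were chosen with earlier results of these data known. HSP150, PRM6, REC114, HIS3 and RPL20A had no value. Alternatives were background correction, scaling, filters, probe rule, variance model, threshold, arrays in the fit, the time term and leaving out each time. No probe, promoter or protein sequence was used here.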

Additional observations from a re-analysis of the deposited data

How the results depend on the processing

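The count of 1013 genes after removal ran from 736 to 1233 over the alternatives of background, scaling, filter, probe rule, variance model and arrays in the fit. It was 214 at an adjusted p of at most 0.01 and 88 without a time term. Leaving out 1 time gave from 1 to 938 genes, with 8 arrays left in the fit. At 0 min the count of 7 was 27 after quantile normalization, 3 where probes had to be well above background on all 16 arrays, 0 with a variance trend, 0 at an adjusted p of at most 0.01, and from 0 to 25 when 1 later time was left out. For the change from 0 min the count of 0 was 1 after quantile normalization (YNL089C), 1 in the deposited table (SLK19), and from 0 to 1 when 1 later time was left out. The cause was not tested. With normexp correction 7 named differences turned below 0, at -0.050 for SPO74, -0.10 for PGU1, -0.089 for HXT14, -0.14 for CDA2, -0.21 for SPR2, -0.084 for CSM4 and -0.089 for PRM3. Of the values of single genes under the alternatives, 1248 kept their direction and side of the threshold, 445 kept the direction but no longer passed, and 7 of called genes reversed. Another 7 values, of uncalled osmostress genes (GPD1, GRE2, HSP12, CTT1 and RTC3), changed sign, all with a time left out except that of GPD1 after quantile normalization.

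Each line had 1 array per time, so no p-value here measures the spread between cultures, and line and slide cannot be told apart. Arrays of 170 were dimmer than those of H, and 18 called genes were never well above background in 1 of the lines after removal. No paired analysis by replicate number was possible because the labels give no replicate numbers; the time term pairs the arrays of a time.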

Other observations

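Over all genes 9.75% were called higher in H and 6.68% higher in 170, against which the counts of these lists stand. Of 36 G1/S genes, 6 were higher in H and 0 in 170, with a median of 0.07, and 4 to 5 were higher in H under the other scalings and background. RAD27, the flap endonuclease of lagging-strand synthesis, stood at -1.23, -1.04 and -1.89 in H and at -2.22, -1.93 and -2.67 in 170 (0.89 ± 0.12, adjusted p = 0.005), and it had differed by 1.16 at 0 min. Among 10 histone genes, 17 purine synthesis genes, 19 phosphate regulon genes and 22 hexose transporter and glucose sensing genes, 0 passed in either direction by limma, and 1, 0, 5 and 2 of them had an unadjusted p of at most 0.05. Of 39 amino acid synthesis genes under Gcn4, 1 was higher in H (GCN4) and 5 in 170 (ARO2, ARO4, LYS2, TRP4 and TRP5), with a median of -0.22.

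Of 20 genes of the iron regulon, 2 were higher in H. HMX1, the heme oxygenase, stood at 1.66 and 1.44 in H and 170 at 0 min and then at -1.08, -1.62 and -1.40 in H and -1.85, -2.42 and -2.56 in 170 (0.91 ± 0.10, adjusted p = 0.003). In WT minus vec it differed by -0.58, the other way. The second was AFT1, the iron-responsive activator, at 0.35. CYC1, a cytochrome c, stood at -0.34, -0.62 and -0.93 in H and at -0.75, -1.28 and -1.57 in 170 (0.57 ± 0.15, adjusted p = 0.037), after -0.07 at 0 min, and WT lay below vec by -1.42. Of 46 respiration and TCA cycle genes, 3 were higher in H (CYC1, KGD1 and QCR2) and 1 in 170 (ATP15), but normexp correction gave 2 and 4 and median scaling 2 and 3. The 11 sulfate assimilation genes, which methionine represses, had 0 calls, 0 genes with an unadjusted p of at most 0.05 and a median of -0.19, and of 26 genes of methionine and cysteine synthesis the single call was MET4, the activator of the sulfur pathway, at 0.50 ± 0.12.

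Of 18 cell wall integrity genes, 3 were higher in H, SWI6 (0.55 ± 0.08), a subunit of the G1/S activators, and the kinases MKK1 and MKK2, of which 1 passed after median scaling and 1 after quantile normalization. Of 36 cell wall genes, FKS1 (0.39 ± 0.11), a glucan synthase, and KRE6 (0.59 ± 0.09), a glucan assembly protein, were higher in H and DAN1 in 170. Of 30 pheromone response genes, BAR1, FUS2 (0.70 ± 0.08), a cell fusion protein, PRM3 and STE12 were higher in H and PRM9 in 170. Of 16 filamentous growth genes, FLO8, FLO10, PGU1 and STE12 were higher in H, with 3 higher in H and 1 in 170 with normexp correction. Of 26 ergosterol genes, ERG5 (0.66 ± 0.13), a sterol desaturase, and ERG7 (0.55 ± 0.10), lanosterol synthase, were higher in H and HMG2, an HMG-CoA reductase, in 170. Among 24 glucose-repressed genes the calls higher in H were SIP4 and FBP1, among 18 thiamine and biotin genes BIO3 and THI21, among 32 proteasome genes RPN1 and RPN4, among 13 M/G1 genes RME1 and among 22 G2/M genes MYO1. Higher in 170 were EPT1 and PIS1 of 19 phospholipid genes and LYP1 of 21 amino acid permeases, and of 10 genes of aromatic amino acid breakdown ARO80 was higher in H and ATF1 in 170. Without the arrays at 90 or at 150 min none of the calls in these lists passed.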
